A study of Mus musculus with 8 samples.

Results

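The 9 Toll-like receptor genes Tlr1, Tlr2, Tlr3, Tlr4, Tlr6, Tlr7, Tlr8, Tlr9 and Tlr13 were followed in bone-marrow-derived macrophages, primary mouse macrophages grown from marrow cells with the growth factor M-CSF at 20 ng/ml. They were found by symbol among the 34745 Ensembl genes of a count table, and all 9 were present and passed the filter on low counts. The 8 libraries form 4 groups of 2, which are KAT8-deficient cells given R848 at 100 ng/ml for a period of 6 h, KAT8-deficient cells left untreated, WT cells given the same R848 treatment, and WT cells left untreated. KAT8 (also called MOF) is an enzyme that acetylates histone H4. The labels call the deficient line KAT8-cKO, and the sources used here give neither the deleted part of the gene, nor any driver of the deletion, the alleles of the WT cells, or the strain, age and sex of the mice. Nothing in them ties the replicates to separate mice or cultures, so the p-values measure the spread between these libraries, which may be technical.

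Toll-like receptors are membrane proteins that recognise microbial molecules with an outer or luminal repeat domain and signal through an inner TIR domain. Those on the cell surface (TLR1, TLR2, TLR4, TLR6) bind lipoproteins and lipopolysaccharide, and those in endosomes (TLR3, TLR7, TLR8, TLR9, TLR13) bind nucleic acids. Most of them use the adaptor MyD88, which leads to NF-kB and to cytokine genes, while TLR3 uses TRIF and TLR4 uses both. R848 (resiquimod) is a synthetic agonist of TLR7 in mouse macrophages, and the design reads the messenger RNA of the family with and without it. Which receptors were active in these cells was not tested.

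Total counts per library ran from 18550977 to 21384532. Levels are given as CPM (counts scaled to TMM-normalised library sizes), and folds as log2 fold changes of a quasi-likelihood fit in edgeR with the p-value adjusted over the 14040 genes tested and a threshold of 0.05. Kat8 itself averaged 10.2 ± 0.307 CPM in KAT8-deficient cells and 17.0 ± 1.45 CPM in WT cells under R848, and 9.76 ± 1.41 against 17.4 ± 0.641 CPM untreated (SD, n = 2 each). The log2 difference was -0.74 (SE 0.12, edgeR adjusted p = 0.00553) under R848 and -0.83 (SE 0.13, edgeR adjusted p = 0.0113) untreated, and leaving out single libraries raised the adjusted p to at most 0.0526 and 0.0881. All 11 macrophage markers were at 1 CPM or more in every library, led by the lysozyme gene Lyz2. The cultures also held fibroblast or stromal transcripts, whose 10 markers summed to 4044 and 4136 CPM in KAT8-deficient cells with R848, 4560 and 4806 untreated, 2753 and 2958 in WT cells with R848, and 3277 and 3796 untreated. Of these 10 markers, 9 under R848 and 8 untreated were higher in KAT8-deficient cells and 0 were lower. Over all tested genes 8.14% were higher and 5.47% lower under R848, and 2.91% higher and 1.36% lower untreated. The sums also moved with R848: 2 markers fell and 0 rose in KAT8-deficient cells, and 5 fell and 1 rose in WT cells. Over all tested genes 0.135% fell and 0.499% rose in KAT8-deficient cells, and 6.7% fell and 6.94% rose in WT cells. Of the 11 macrophage markers, 3 were higher and 3 lower in KAT8-deficient cells under R848, and Lyz2 alone was lower without it. The part of these shifts in the receptor values below was not tested, and in such bulk samples fewer cells of a type and less RNA per cell cannot be told apart.

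The 5 genes that passed the test of the R848 response in WT cells were Tlr2, Tlr1, Tlr6 and Tlr3 upward and Tlr8 downward. For these genes, the stretches upstream of a RefSeq start are shown. Each is the 250 bases before the start of transcription in RefSeq (GRCm38.p6), the first listed where there are several, written 5' to 3' in the direction of the gene, and capitals mark matches to the NF-kB consensus, a motif of 10 bases searched on both strands.
Tlr2, chr3:83841609-83841858, minus strand: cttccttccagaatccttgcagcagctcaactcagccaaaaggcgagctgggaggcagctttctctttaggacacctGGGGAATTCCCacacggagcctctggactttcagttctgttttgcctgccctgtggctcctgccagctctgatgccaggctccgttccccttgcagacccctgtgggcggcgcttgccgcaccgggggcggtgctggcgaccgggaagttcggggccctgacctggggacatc
Tlr1, chr5:64933559-64933808, minus strand: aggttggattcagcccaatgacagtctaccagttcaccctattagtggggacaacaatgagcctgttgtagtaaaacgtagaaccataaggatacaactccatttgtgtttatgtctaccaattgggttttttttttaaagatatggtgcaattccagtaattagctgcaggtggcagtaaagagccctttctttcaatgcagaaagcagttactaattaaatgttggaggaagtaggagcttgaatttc
Tlr6, chr5:64959167-64959416, minus strand: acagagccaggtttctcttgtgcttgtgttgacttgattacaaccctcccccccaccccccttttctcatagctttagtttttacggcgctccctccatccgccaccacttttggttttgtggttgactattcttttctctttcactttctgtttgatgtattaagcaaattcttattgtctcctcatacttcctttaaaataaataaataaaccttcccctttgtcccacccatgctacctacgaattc
Tlr3, chr8:45410381-45410630, minus strand: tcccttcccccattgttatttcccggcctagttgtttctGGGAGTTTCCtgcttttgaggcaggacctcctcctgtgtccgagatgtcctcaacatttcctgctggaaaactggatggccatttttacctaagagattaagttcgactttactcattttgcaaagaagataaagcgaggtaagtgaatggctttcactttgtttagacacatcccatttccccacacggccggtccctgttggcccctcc
Tlr8, chrX:167264330-167264579, minus strand: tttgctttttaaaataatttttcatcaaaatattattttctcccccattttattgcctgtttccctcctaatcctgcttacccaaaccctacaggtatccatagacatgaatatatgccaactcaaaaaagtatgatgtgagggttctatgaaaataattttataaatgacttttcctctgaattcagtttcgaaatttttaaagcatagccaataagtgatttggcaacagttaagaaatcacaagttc

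Among the 9 windows found for 7 of the members (Tlr1 and Tlr6 have more than 1 start, and Tlr4 and Tlr7 were not matched), the NF-kB consensus was found in Tlr2, between 173 and 163 bases before the start as overlapping matches, and in Tlr3, between 211 and 202 bases before it. It was found in 3.9% of all 32851 windows of this length. The core of the PU.1 motif (GAGGAA), named for a macrophage factor, lay in the windows of Tlr1, Tlr8, Tlr9 and Tlr13, against 23.3% of all windows. The core of the interferon-stimulated response element (ISRE) was found, with 2 overlapping matches, in a Tlr6 window alone among the members, against 2.98% of all windows. The bases that follow either Tlr6 start were not found in the GENCODE M21 transcripts of Tlr6, unlike those of the other windows. This search did not ask whether a transcript begins at those bases. The span of Tlr2 in GENCODE M21 reaches 83841767, inside its window, so part of that window lies within the gene. The Tlr3 window lies wholly within its gene, which reaches 45411080. So does the printed Tlr6 window, which holds the ISRE matches, in a gene that reaches 64960097. The Tlr13 window, from 106143025 to 106143274, lies partly within its gene, which starts at 106143204. The printed Tlr1 window also lies partly within its gene, which reaches 64933563. The other Tlr1 window lies wholly within the gene, and the other Tlr6 window partly. The distance of any match from a start used in these cells is therefore uncertain. Tlr9 held a site for AP-1 (TGANTCA), alone among the members, against 6.75% of all windows. These are letter matches only.

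R848 raised Tlr2 in both genotypes and, in WT cells, also Tlr1, Tlr6 and Tlr3, while Tlr8 fell there. In KAT8-deficient cells 1 of the 9 genes was higher and 0 were lower, where 0.634% of all tested genes were called (0.499% higher and 0.135% lower). In WT cells 4 were higher and 1 lower, where 13.6% of all tested genes were called (6.94% upward and 6.7% downward). In KAT8-deficient cells the libraries with R848 lay above all untreated ones for 5 receptors and below them for 2, 7 in all, where 23.8%, 23% and 46.8% of all tested genes did, and 6 receptors had an unadjusted p under 0.05, where 13.8% of genes did. In WT cells 5 lay above and 2 below, again 7 in all, where 27.7%, 28.3% and 56% of all tested genes did, and 6 receptors had an unadjusted p under 0.05, where 27.7% of genes did. The median log2 response of the 9 was 0.26 in KAT8-deficient and 0.43 in WT cells, against 0.002 and -0.002 over all genes tested.

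Tlr2, which recognises bacterial lipoproteins together with TLR1 or TLR6, had 127 and 181 CPM in KAT8-deficient cells with R848 and 54.7 and 63.7 CPM untreated. In WT cells it had 423 and 407 CPM with R848 and 82.2 and 78.9 CPM untreated. No library with R848 overlapped an untreated one, and both treated KAT8-deficient libraries lay between the WT groups. The log2 response was 1.38 (SE 0.15, edgeR adjusted p = 0.0157) in KAT8-deficient cells and 2.37 (SE 0.15, edgeR adjusted p = 8.91e-05) in WT cells. The KAT8-deficient call was lost without KAT8-deficient untreated replicate 1 (1.27, adjusted p = 0.132) and in a fit of the 4 compared libraries alone (adjusted p = 0.0813).

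Tlr1, the TLR2 partner for triacylated lipoproteins, had 52.3 and 58.4 CPM in KAT8-deficient cells with R848 and 39.5 and 40.4 CPM untreated, against 82.2 and 86.3 CPM with R848 and 40.1 and 34.8 CPM untreated in WT cells. The untreated genotypes overlapped, and the WT cells with R848 stood above all other libraries. Its log2 response was 0.47 (SE 0.089, edgeR adjusted p = 0.0636) in KAT8-deficient cells, short of the threshold except by DESeq2 (adjusted p = 0.00922) or with no filter on low counts (adjusted p = 0.0124). In WT cells it was 1.17 (SE 0.089, edgeR adjusted p = 0.000141). Tlr6, the partner for diacylated lipoproteins, had 25.2 and 26.1 CPM in KAT8-deficient cells with R848 and 22.4 and 20.5 CPM untreated. In WT cells Tlr6 had 38.1 and 33.9 CPM with R848 and 27.2 and 23.7 CPM untreated, so that the treated WT libraries were the highest of the 8. The Tlr6 response was 0.26 (SE 0.10, edgeR adjusted p = 0.32) in KAT8-deficient and 0.50 (SE 0.10, edgeR adjusted p = 0.0126) in WT cells. The WT call was lost without WT R848 replicate 1 (0.40, adjusted p = 0.11) or WT untreated replicate 2 (0.41, adjusted p = 0.0737). Tlr1 and Tlr6 are neighbours on chromosome 5, 18467 bases apart, and share sequence. A run of 229 identical bases is the longest, and 7.89% of the 100-base words of Tlr1 transcripts also occur in Tlr6 transcripts, so reads there could have been split between them in the authors' counting.

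Tlr4, the lipopolysaccharide receptor, was set apart by its spread. It had 10.5 and 11.2 CPM in KAT8-deficient cells with R848 but 14.4 and 63.3 CPM untreated, and 8.11 and 8.63 CPM in WT cells with R848 against 8.48 and 15.9 CPM untreated. KAT8-deficient untreated replicate 2 thus stood 4.4 times above its replicate, and all other libraries lay at 15.9 CPM or below. The log2 response was -1.84 (SE 0.57, edgeR adjusted p = 0.215) in KAT8-deficient and -0.53 (SE 0.61, edgeR adjusted p = 0.634) in WT cells. Without that library the KAT8-deficient value was -0.40 (adjusted p = 0.632). The WT value was -0.02 without WT untreated replicate 2 and -0.94 without replicate 1. With no filter on low counts the KAT8-deficient fall passed (adjusted p = 0.0407). GENCODE M21 gives Tlr4 a span from 66827584 to 66930284 on chromosome 4 (GRCm38, plus strand) with 4 transcripts.

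**Figure D1:**
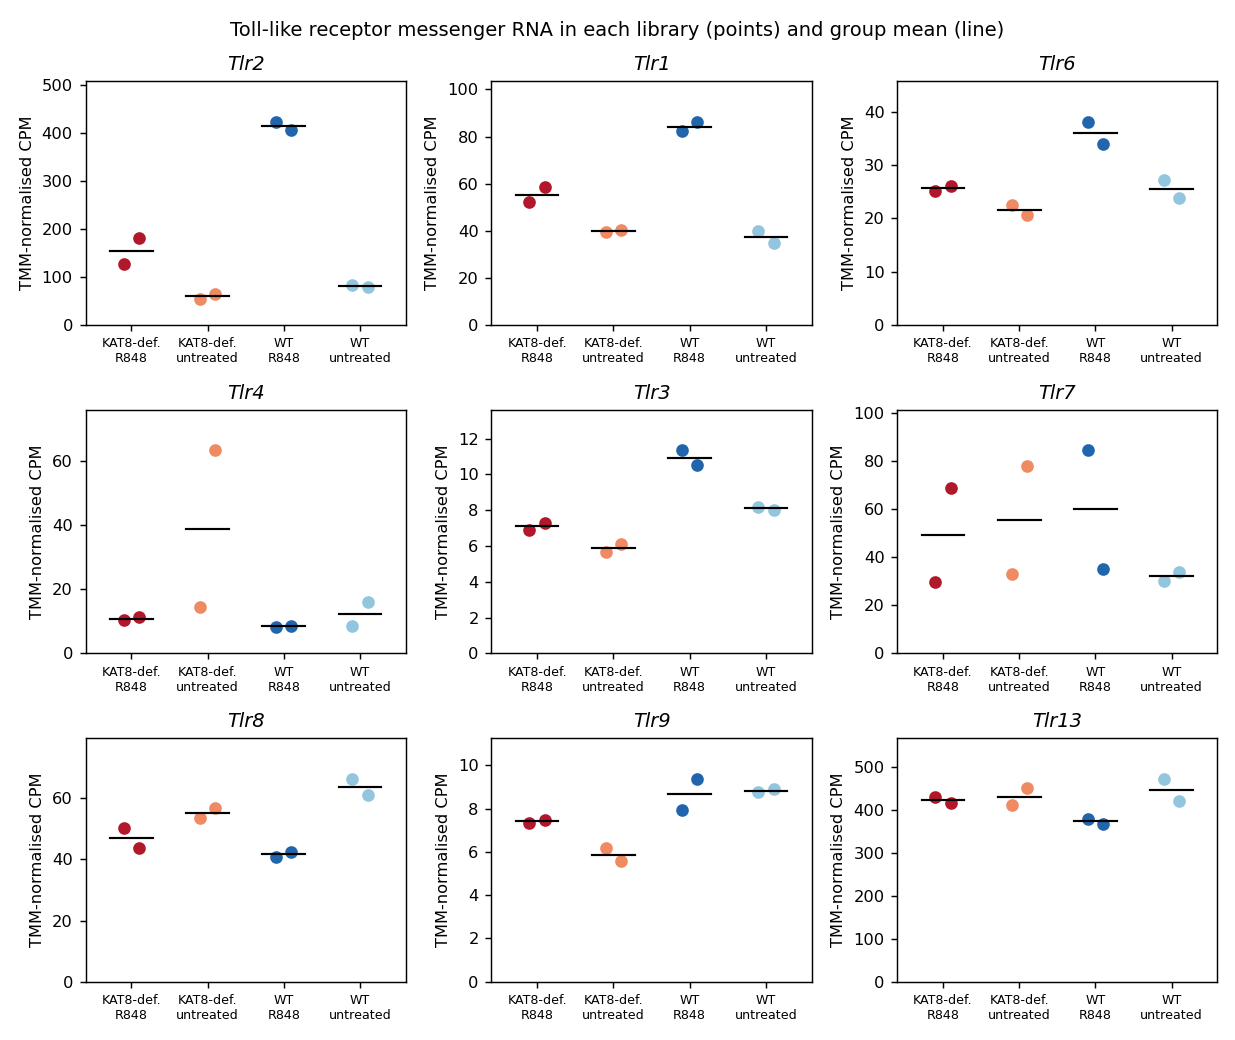
CPM of the 9 Toll-like receptor genes (y axis, from 0) in each library (points) by group, with the group mean as a line. Tlr2, Tlr1, Tlr6 and Tlr3 are highest in the 2 WT libraries with R848, Tlr7 is split within 3 of the 4 groups, and a single untreated KAT8-deficient library carries the high Tlr4 value of 63.3 CPM.

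Tlr3, the endosomal sensor of double-stranded RNA, had 6.88 and 7.31 CPM in KAT8-deficient cells with R848 and 5.67 and 6.10 CPM untreated, against 11.4 and 10.5 CPM with R848 and 8.20 and 8.04 CPM untreated in WT cells. Its 4 groups did not overlap, and the WT cells were above the KAT8-deficient cells in either state. An antisense gene, Gm45542, which is absent from the count table, shares 381 exon bases with Tlr3. Whether the counting used strand is not stated. The log2 response was 0.27 (SE 0.12, edgeR adjusted p = 0.367) in KAT8-deficient and 0.43 (SE 0.11, edgeR adjusted p = 0.0413) in WT cells. The WT call was weak. It was lost in all 8 fits that each left out 1 library (adjusted p from 0.0594 to 0.222) and in 4 of 6 other settings (0.0566 with the replicate block to 0.27 by DESeq2).

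Tlr7, the receptor for single-stranded RNA that R848 engages, did not pass in either genotype, and the replicates of 3 groups disagreed. It had 29.6 and 69.1 CPM in KAT8-deficient cells with R848, 33.1 and 77.9 CPM in untreated KAT8-deficient cells, 84.7 and 35.2 CPM in WT cells with R848, and 30.2 and 33.9 CPM in untreated WT cells. The low replicate of each split group lay close to the untreated WT libraries, and the 3 high values fell in both genotypes and both treatments. The ratio between replicates was 2.33, 2.36, 2.41 and 1.12 in these groups. Of 10555 genes with a mean of at least 5 CPM, 22 (0.208%) differed at least 2-fold between replicates in 3 or more of the groups, Tlr7 among them. GENCODE M21 gives Tlr7 6 transcripts and Tlr4 4, against 9 for Tlr3, 5 for Tlr8 and 1 to 3 for the remaining members. The replicates of Tlr3 differed by at most 1.08-fold and those of Tlr8 by at most 1.15-fold. The submitters' notes name StringTie, a transcript assembler, but do not say how reads were assigned to transcripts and genes, and the part of that step in the splits of Tlr7 and Tlr4 was not tested. The log2 response of Tlr7 was -0.17 (SE 0.52, edgeR adjusted p = 0.916) in KAT8-deficient cells. Leaving out 1 library gave values from -0.91 to 0.58. In WT cells it was 0.90 (SE 0.53, edgeR adjusted p = 0.314), and 0.13 (adjusted p = 0.931) without WT R848 replicate 1. With an SE of this size, a change like that of Tlr6 was not detectable for Tlr7.

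Tlr8, its neighbour 40599 bases away on the X chromosome (GRCm38, 167242696 to 167264329, with Tlr7 at 167304929 to 167330558), did not share this split. The protein senses products of RNA breakdown in human cells. Tlr8 had 50.4 and 43.9 CPM in KAT8-deficient cells with R848 and 53.5 and 56.8 CPM untreated, against 40.9 and 42.4 CPM with R848 and 66.4 and 61.0 CPM untreated in WT cells. Both genotypes were lower with R848 in every library, and replicates differed by at most 1.15-fold. The log2 response was -0.23 (SE 0.087, edgeR adjusted p = 0.3) in KAT8-deficient and -0.61 (SE 0.087, edgeR adjusted p = 0.00224) in WT cells, and the WT fall was called in all 8 fits that left out 1 library.

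Tlr9, the receptor for unmethylated CpG DNA, had 7.35 and 7.50 CPM in KAT8-deficient cells with R848 and 6.19 and 5.56 CPM untreated, against 7.95 and 9.39 CPM with R848 and 8.76 and 8.91 CPM untreated in WT cells. The treated and untreated WT libraries overlapped. The log2 response was 0.34 (SE 0.13, edgeR adjusted p = 0.316) in KAT8-deficient and -0.03 (SE 0.13, edgeR adjusted p = 0.924) in WT cells. Tlr13, which recognises bacterial ribosomal RNA, had 429 and 416 CPM in KAT8-deficient cells with R848 and 411 and 449 CPM untreated, against 379 and 366 CPM with R848 and 472 and 419 CPM untreated in WT cells. Its response was -0.03 (SE 0.074, edgeR adjusted p = 0.912) in KAT8-deficient cells, where the groups overlapped. In WT cells it was -0.26 (SE 0.074, edgeR adjusted p = 0.051), just short of the threshold, and it passed in 4 of 6 other settings (adjusted p from 0.0286 to 0.0489) and without WT untreated replicate 2 (-0.34, adjusted p = 0.0363).

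**Figure D2:**
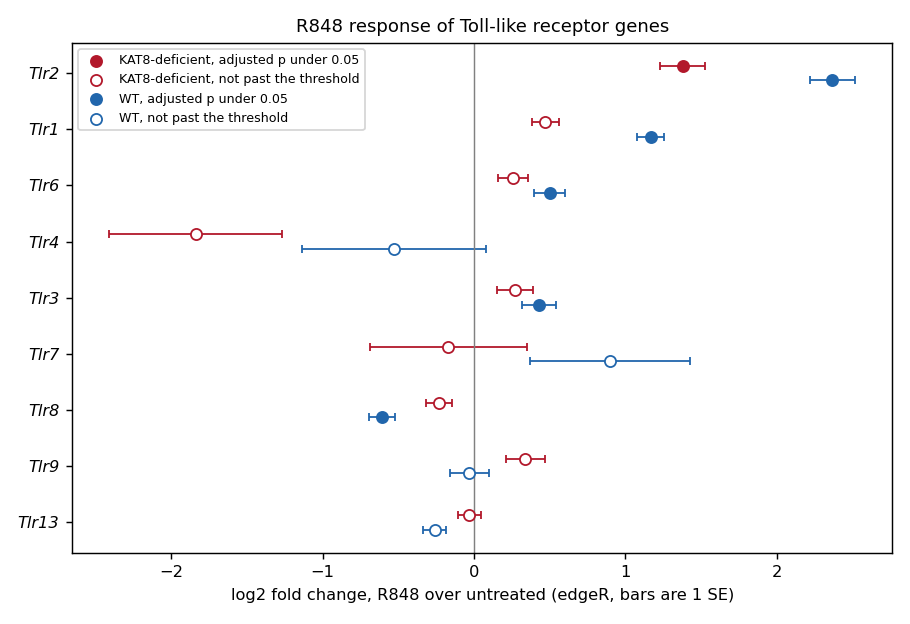
log2 fold change of R848 over untreated (x axis) for the 9 genes in KAT8-deficient (red, upper) and WT cells (blue, lower), with bars of 1 SE and filled symbols past the adjusted p of 0.05. Tlr2, at 1.38 and 2.37, is filled in both genotypes, and the widest bars belong to Tlr4 and Tlr7.

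Under R848, KAT8-deficient cells held less messenger RNA of 4 of the 9 receptors than WT cells and more of 0, where 5.47% of all tested genes were lower and 8.14% higher (13.6% called in all). The KAT8-deficient libraries lay below all WT ones for 5 receptors and above them for 3, 8 in all, where 30.3%, 29.2% and 59.4% of all tested genes did, and 5 receptors had an unadjusted p under 0.05, where 28.2% of genes did. The 4 called were Tlr2, Tlr1, Tlr3 and Tlr6, the 4 genes raised by R848 in WT cells, and the comparison shares the treated WT libraries with that response. Tlr2 averaged 154 ± 37.8 CPM in KAT8-deficient cells and 415 ± 11.6 CPM in WT cells (SD, n = 2 each; log2 -1.43, SE 0.15, edgeR adjusted p = 0.000659). The range of the Tlr2 difference over fits that left out 1 library was -1.70 to -1.19. Tlr1 averaged 55.4 ± 4.34 CPM against 84.3 ± 2.92 CPM in WT (SD, n = 2 each; log2 -0.61, SE 0.087, edgeR adjusted p = 0.00277). Both calls held whichever library was left out and in all 6 other settings.

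Tlr3 averaged 7.10 ± 0.305 CPM in KAT8-deficient cells and 10.9 ± 0.597 CPM in WT cells (SD, n = 2 each; log2 -0.62, SE 0.12, edgeR adjusted p = 0.00885). It did not pass by DESeq2 (adjusted p = 0.0501), without KAT8-deficient R848 replicate 1 (-0.58, adjusted p = 0.0647) or without WT R848 replicate 1 (-0.56, adjusted p = 0.0747). Tlr6 averaged 25.7 ± 0.684 CPM in KAT8-deficient cells and 36.0 ± 3.00 CPM in WT cells (SD, n = 2 each; log2 -0.49, SE 0.10, edgeR adjusted p = 0.0137). It was lost without the same libraries (-0.46, adjusted p = 0.0833, and -0.40, adjusted p = 0.115). For the other genes the log2 difference was 0.18 for Tlr13 (adjusted p = 0.146) and 0.18 for Tlr8 (adjusted p = 0.225), -0.22 for Tlr9 (adjusted p = 0.303), 0.37 for Tlr4 (adjusted p = 0.74) and -0.28 for Tlr7 (adjusted p = 0.769). The Tlr7 value ranged from -1.01 to 0.49 when 1 library was left out.

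Without R848, 1 of the 9 genes was lower in KAT8-deficient cells and 0 were higher, where 1.36% of all tested genes were lower and 2.91% higher (4.27% called in all). The KAT8-deficient libraries lay below all WT ones for 5 receptors and above them for 0, where 25.5% and 24.9% of all tested genes did (50.4% in either direction), and 6 receptors had an unadjusted p under 0.05, where 20.3% of genes did. Tlr9 averaged 5.88 ± 0.445 CPM in KAT8-deficient cells and 8.83 ± 0.104 CPM in WT cells (SD, n = 2 each; log2 -0.59, SE 0.13, edgeR adjusted p = 0.0472). The call was lost in all 8 fits that left out 1 library (adjusted p from 0.0574 to 0.197), and in 3 of 6 other settings, among them the replicate block (adjusted p = 0.0648). Tlr3 (log2 -0.46, edgeR adjusted p = 0.0731), Tlr2 (-0.44, 0.142), Tlr6 (-0.25, 0.226) and Tlr8 (-0.21, 0.218) had lower values in both KAT8-deficient libraries than in either WT library but did not pass, except that Tlr2 did by DESeq2 (adjusted p = 0.0301), with no filter on low counts (0.0492) or without either KAT8-deficient R848 library (0.0284 and 0.0286). Tlr1 (0.09, edgeR adjusted p = 0.615), Tlr13 (-0.05, 0.746) and Tlr7 (0.79, 0.447) overlapped between the genotypes. The Tlr7 value was 0.05 without KAT8-deficient untreated replicate 2 and 1.28 without replicate 1. Tlr4 overlapped as well (1.68, edgeR adjusted p = 0.146), which passed with no filter on low counts (0.0325), stood at 2.38 (0.0204) without KAT8-deficient untreated replicate 1, and at 0.24 (0.742) without replicate 2.

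**Figure D3:**
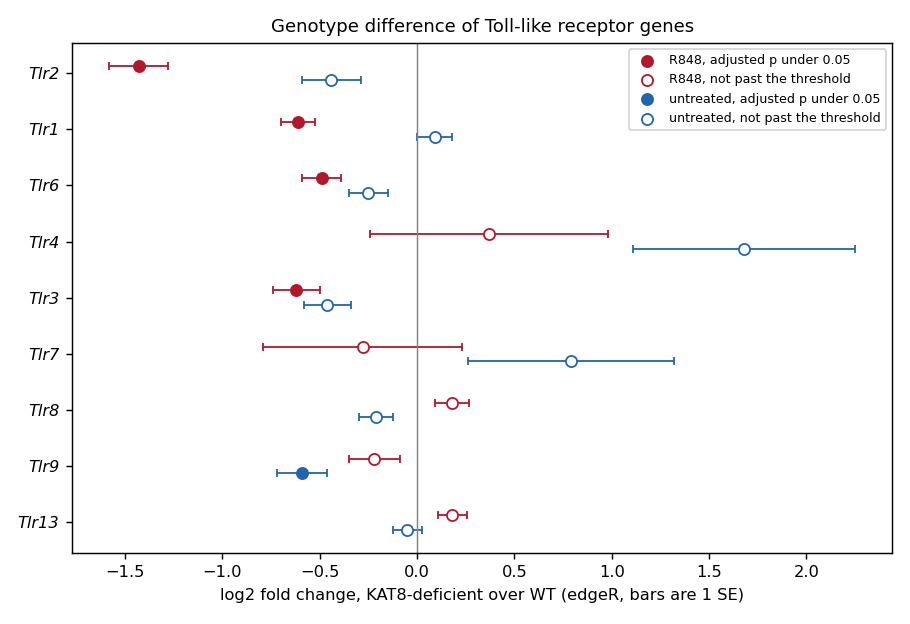
log2 fold change of KAT8-deficient over WT cells (x axis) with R848 (red, upper) and untreated (blue, lower), with bars of 1 SE and filled symbols past the adjusted p of 0.05. Tlr2, Tlr1, Tlr6 and Tlr3 are filled and below 0 under R848, at -1.43 to -0.49, and Tlr9 is the filled symbol without it, at -0.59.

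The difference between the genotypes in their R848 response was tested as an interaction, in which 0.228% of all tested genes passed by edgeR (0.057% higher, 0.171% lower) and 0 of the 9 receptors did. At an unadjusted p under 0.05, 11.4% of all tested genes passed. Among the receptors Tlr1, Tlr2 and Tlr8 did, and 2 receptors passed after adjustment by DESeq2 or with no filter on low counts, Tlr1 and Tlr2 each time. The response of Tlr2 in KAT8-deficient cells minus that in WT cells was -0.98 in log2 units (SE 0.21, edgeR adjusted p = 0.0913). That of Tlr1 was -0.70 (SE 0.13, edgeR adjusted p = 0.0678). By DESeq2 these were -0.99 (adjusted p = 4.52e-05) and -0.70 (adjusted p = 0.0039). Of the 8 fits that left out 1 library, each gene passed in 1, that without KAT8-deficient R848 replicate 2, the replicate with the higher Tlr2 (Tlr2 -1.25, adjusted p = 0.00645, and Tlr1 -0.77, adjusted p = 0.0387). Over the 8 fits Tlr2 ran from -1.25 to -0.75 with an adjusted p of up to 0.296, and Tlr1 from -0.79 to -0.60 with an adjusted p of up to 0.208. The remaining values ran from -1.31 (SE 0.83) for Tlr4 to 0.39 (SE 0.12, edgeR adjusted p = 0.257) for Tlr8, with Tlr7 at -1.07 (SE 0.74, edgeR adjusted p = 0.651). The Tlr7 value was -1.80 when KAT8-deficient R848 replicate 2 was left out and -0.30 when WT R848 replicate 1 was, and the Tlr4 value was 0.13 without KAT8-deficient untreated replicate 2.

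Levels can be set beside each other only per length, and dividing CPM by the kilobases of annotated exon gives RPKM. Tlr13 and Tlr2 led in each group. In KAT8-deficient cells with R848 Tlr13 averaged 98.2 RPKM and Tlr2 51.2, and untreated 99.9 and 19.7. In WT cells with R848 Tlr2 averaged 137.6 RPKM and Tlr13 86.5, and untreated Tlr2 26.7 and Tlr13 103.6. Tlr2 thus stood above Tlr13 in WT cells with R848 and below it in the other 3 groups, without overlap in any. Of the summed RPKM of the 9 genes, Tlr2 made up 25.1% in KAT8-deficient cells with R848, 11.2% untreated, 47.2% in WT cells with R848 and 14.8% untreated.

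Tlr1, Tlr8, Tlr7 and Tlr6 followed, with group means from 5.76 RPKM (Tlr6, untreated KAT8-deficient cells) to 25.2 RPKM (Tlr1, WT cells with R848). Within them Tlr7 and Tlr8 overlapped in 3 groups, where their order cannot be read, and in untreated WT cells Tlr8 at 17.8 RPKM stood above Tlr7 at 7.85 RPKM. Tlr9, Tlr4 and Tlr3 were the lowest, between 1.13 and 2.54 RPKM on average, apart from Tlr4 in untreated KAT8-deficient cells, which averaged 6.99 RPKM from 2.59 and 11.4. Tlr5, the flagellin receptor and no member of the chosen set, had 33 to 78 counts per library, and Tlr11 and Tlr12 had at most 3 and 6 counts in any library.

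**Figure D4:**
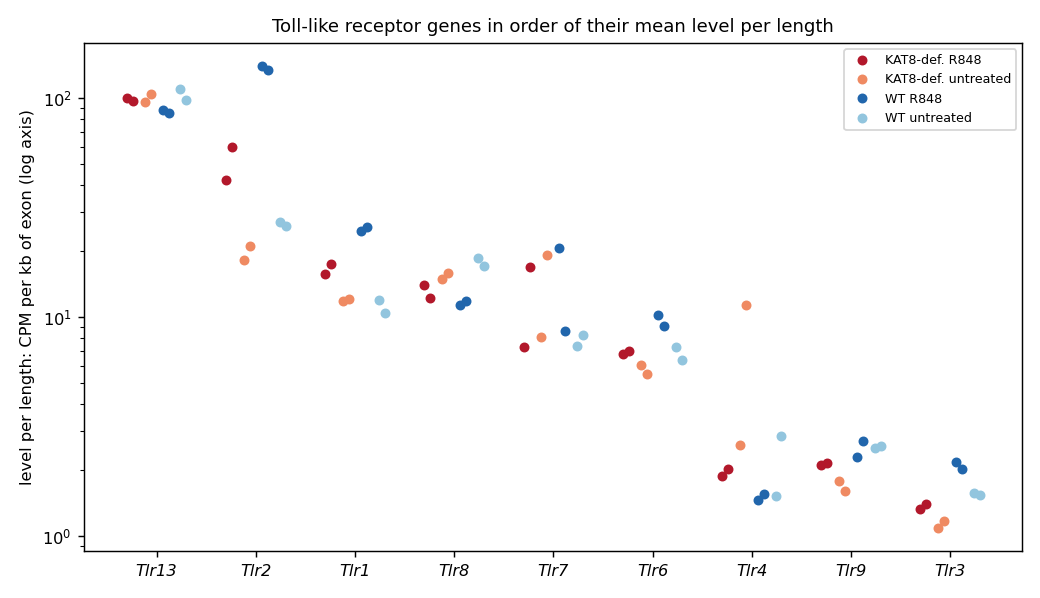
Level per length (RPKM, that is CPM per kilobase of exon, on a log axis) of the 9 genes in each library, ordered by their mean. Tlr13 stays between 85.1 and 109.7 RPKM in every library, while Tlr2 runs from 18.2 RPKM in an untreated KAT8-deficient library to 140.3 RPKM in a WT library with R848.

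Genes around the receptors were read from 5 lists, whose median log2 responses to R848 lay between 0.03 and 0.16 in KAT8-deficient cells and between -0.11 and 0.35 in WT cells, against 0.002 and -0.002 over all genes tested. Their counts stand against the share of all tested genes called, which was 0.634% for R848 in KAT8-deficient cells, 13.6% for R848 in WT cells (6.94% upward, 6.7% downward), 13.6% for genotype under R848 (8.14% higher, 5.47% lower) and 4.27% for genotype untreated (2.91% higher, 1.36% lower). At an unadjusted p under 0.05 by edgeR the share was 13.8% for R848 in KAT8-deficient cells, 20.3% for genotype untreated and 11.4% in the interaction. In these comparisons DESeq2 called 235, 565 and 227 genes after adjustment. Among 24 adaptors, kinases and factors, 1 was higher with R848 in KAT8-deficient cells and 5 in WT cells, and 0 were lower in either. Ikbke, a kinase of the interferon branch, was called in both, at a log2 response of 0.68 (SE 0.086, edgeR adjusted p = 0.0273) in KAT8-deficient and 0.91 (SE 0.086, edgeR adjusted p = 0.000287) in WT cells. Map3k8, the kinase TPL2, at 0.90 (SE 0.12) and Tbk1 at 0.34 (SE 0.065) rose in WT cells. Under R848, 6 of the 24 were lower in KAT8-deficient cells and 0 higher, led by Ikbke at -0.47 (SE 0.085), Ticam2, the TLR4 adaptor TRAM, at -0.50 (SE 0.091), and Irf7, an interferon regulatory factor, at -0.63 (SE 0.14). Untreated, the 2 lower genes were Irf7 (-0.76, SE 0.15) and Ticam2 (-0.45, SE 0.092).

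Of 15 tested brakes on the pathway, 1 was higher with R848 in KAT8-deficient cells and 0 were lower, and 5 were higher and 3 lower in WT cells. Tnip1, a partner of the deubiquitinase A20, was called in both, at 0.67 (SE 0.088, edgeR adjusted p = 0.0273) and 1.12 (SE 0.089, edgeR adjusted p = 0.000155). In WT cells Irak3, an inhibitory kinase relative, rose by 1.57 (SE 0.16) and Mertk, a receptor for apoptotic cells, fell by 0.66 (SE 0.093). Under R848, 3 were lower in KAT8-deficient cells and 0 higher, namely Tnip1 at -0.60 (SE 0.087), Irak3 at -0.86 (SE 0.15) and Tnfaip3, which encodes A20, at -1.59 (SE 0.35). With R848, Tnfaip3 had 55.4 and 80.1 CPM in KAT8-deficient cells and 266 and 143 CPM in WT cells, so its replicates were far apart. Its difference ran from -1.97 to -1.07 over the fits that left out 1 library, and the call did not hold in all of them. Untreated, 0 of the 15 passed by edgeR, 0 by DESeq2 and 0 at an unadjusted p under 0.05.

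Of 10 co-receptors and accessory genes, 0 were called for R848 in KAT8-deficient cells by edgeR (1 at an unadjusted p under 0.05) and 0 by DESeq2, and in WT cells Cd14, a lipopolysaccharide co-receptor, rose by 1.21 (SE 0.12) and Cd180 fell by 0.31 (SE 0.066). Under R848 Cd180 (0.54, SE 0.066) and Scarb1, a scavenger receptor (0.26, SE 0.072), were higher and Cd14 (-0.65, SE 0.11) lower in KAT8-deficient cells. Untreated, Lbp, the lipopolysaccharide-binding protein, alone was lower (-1.30, SE 0.24), at 1.10 and 1.07 CPM in KAT8-deficient and 2.80 and 2.55 CPM in WT libraries. Of 21 tested genes for trafficking and processing of endosomal receptors, 0 were called for R848 in KAT8-deficient cells by edgeR (2 at an unadjusted p under 0.05) and 0 by DESeq2, and 1 was higher and 3 lower in WT cells, 4 of 21 where 13.6% of all tested genes were called. Rab7b, a lysosomal GTPase, fell by 0.66 (SE 0.058), Rnaset2a, an endosomal ribonuclease, rose by 0.25 (SE 0.062) and Lgmn, a lysosomal protease, fell by 0.25 (SE 0.066). Rnaset2a and Rnaset2b are near-identical copies, so the counts of both are uncertain. Between the genotypes 4 were higher and 2 lower under R848, including Rab7b (0.45, SE 0.058), Rnaset2b (-0.40, SE 0.065) and the cathepsin gene Ctsk (0.35, SE 0.058). Untreated, 3 were higher and 2 lower, including Ctsk (0.31, SE 0.058), Dnase2a (0.32, SE 0.065), a lysosomal deoxyribonuclease, and Ctss (-0.40, SE 0.080), another cathepsin gene. Unc93b1, the chaperone of the endosomal receptors, lay between 363 and 393 CPM in all 8 libraries and passed in no comparison.

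Of 14 other sensors of nucleic acids and peptidoglycan, 0 were called for R848 in KAT8-deficient cells by edgeR (5 at an unadjusted p under 0.05) and 1 by DESeq2. In WT cells 5 were higher, led by the inflammasome gene Nlrp3 (2.61, SE 0.23), Nod2 (1.51, SE 0.19) and Ifih1, which encodes MDA5 (0.58, SE 0.083). Under R848, 6 were lower in KAT8-deficient cells and 0 higher. Nlrp3 had 12.0 and 17.7 CPM in KAT8-deficient cells and 70.9 and 69.7 CPM in WT cells (-2.24, SE 0.22), with Nod2 at -1.53 (SE 0.19) and Ifih1 at -0.67 (SE 0.083). Naip2, a sensor of bacterial secretion systems, was the sole one called untreated (-0.33, SE 0.058). In the interaction 0 of these 5 lists had a gene called by edgeR, with 1 to 4 genes in each at an unadjusted p under 0.05, and DESeq2 called 1 gene in each of 4 lists.

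Calls of single genes from these lists varied in how far they held. Of 14 named in the WT response, 10 were kept whichever library was left out, against 7 of 16 under R848 (Kat8 included), 0 of 8 untreated (Kat8 included) and 0 of 2 in the KAT8-deficient response. In all of the other settings 12 of the 14, 14 of the 16, 2 of the 8 and 1 of the 2 were kept. Scarb1 under R848 was lost in 4 of 6 of these settings and Rnaset2a in the WT response in 3 of 6. Nlrp3, Nod2, Ifih1, Tnip1 and Rab7b were kept in both the WT response and the difference under R848.

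Among 10175 named genes with at least 5 CPM on average, those whose log2(CPM + 1) followed Tlr2 most closely over the 8 libraries were Clec4e, the lectin receptor Mincle (Pearson r = 0.999), Psmd10, a proteasome assembly factor (0.999), and Rassf4 (0.998). These 8 values share libraries and hold the R848 response, so this describes the pattern only. Clec4e had 210 and 326 CPM in KAT8-deficient cells with R848 and 65.7 and 75.4 CPM untreated, against 984 and 919 CPM with R848 and 114 and 117 CPM untreated in WT cells. For Tlr7 the nearest were Prpf38b, a splicing factor gene (r = 0.979), Ube2g2, a ubiquitin-conjugating enzyme (0.937), and Tmem138 (0.914). Prpf38b had 51.3 and 66.6 CPM in KAT8-deficient cells with R848 and 54.4 and 64.8 CPM untreated, against 71.9 and 55.8 CPM with R848 and 51.8 and 54.6 CPM untreated in WT cells. Its replicates differed in the same libraries as those of Tlr7, by a smaller ratio. Prpf38b was picked by its correlation with Tlr7 over these 8 libraries, so this too describes the pattern only.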

How the data were processed

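The deposited table holds raw counts by Ensembl gene, with a column for each library, per the file headers. All values were whole numbers. StringTie 1.3.0, HISAT2, edgeR and the build mm10 are named in the submitters' processing notes, with no role stated. Annotation, strand setting and counting rules are not stated there. Column names gave the sample of all 8 columns. Symbols, positions and exon lengths came from GENCODE M21 (GRCm38, the same build as mm10), and 34344 of 34745 identifiers had a symbol.

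edgeR 4.0.16 (R 4.3.3) was run with filterByExpr (14040 genes kept), TMM and the quasi-likelihood test. All 8 libraries were in 1 fit with 4 residual degrees of freedom, and the common BCV (biological coefficient of variation) was 0.0956. The tests are two-sided with Benjamini-Hochberg adjustment over all genes tested. SE is the absolute log2 fold change over the square root of F. A floor of 3 counts is 0.14 to 0.163 CPM, for counting error only. Replicates differed by more than counting error (chi-square per degree of freedom 7.41 to 11.96). The method was tested on simulated counts.

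All 9 receptors are named. From each list at most 3 called genes with the smallest adjusted p are named per comparison, and for Tlr2 and Tlr7 the 3 best correlated genes. Genes named to spell out a count of 5 or fewer, and Unc93b1, were chosen after their values were seen. The members and lists were chosen with earlier results of these data known. Alternatives were DESeq2 1.42.0 size factors or Wald test, no filter, a filter of 5 CPM in 2 libraries, the compared libraries alone, a replicate block, leaving out each library and another exon length. For the lists they were chosen after seeing the data.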

Additional observations from a re-analysis of the deposited data

Results flagged for a closer look

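Tlr8 was picked out because its genotype difference pointed opposite ways in the 2 states. The share of all tested genes that meet this rule was not counted. In a single state, the KAT8-deficient libraries lay above all WT ones for 29.2% of all tested genes with R848. Untreated, they lay below all WT ones for 25.5%. With R848, both KAT8-deficient libraries (50.4 and 43.9 CPM) lay above both WT libraries (40.9 and 42.4 CPM), and untreated, both KAT8-deficient libraries (53.5 and 56.8 CPM) lay below both WT libraries (66.4 and 61.0 CPM). The test of the difference, the interaction, gave 0.39 (SE 0.12, edgeR adjusted p = 0.257, adjusted p from 0.116 to 0.566 when 1 library was left out) on the log2 scale, so it did not pass the correction.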

How the results depend on the processing

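Counts of the 9 receptors called depended most on the comparison with few calls. With no filter on low counts, 3 were called for R848 in KAT8-deficient cells (main value 1), 3 for genotype untreated (main value 1) and 2 in the interaction (main value 0). By the DESeq2 Wald test these were 2, 1 and 2. The gene called untreated was Tlr2 by DESeq2 and Tlr9 in the main fit, so equal counts did not mean the same gene. Nor was Tlr9 the gene called untreated in fits that left out 1 library. With the replicate block, 0 passed for genotype untreated. With the compared libraries alone, 0 passed for R848 in KAT8-deficient cells and 0 for genotype untreated. Leaving out 1 library at a time, with a lone remaining library assumed to vary like the other groups, gave 0 to 1 for R848 in KAT8-deficient cells, 3 to 4 for R848 in WT cells (5 with all libraries), 2 to 4 for genotype under R848 (4), 0 to 1 untreated and 0 to 2 in the interaction. Of the refitted fold changes of the receptors 9 changed sign, all of them when 1 library was left out and none past the threshold: Tlr7 ran from -0.91 to 0.58 (R848, KAT8-deficient) and from -1.01 to 0.49 (genotype under R848), Tlr13 from -0.09 to 0.05 (R848, KAT8-deficient) and -0.13 to 0.03 (genotype untreated), Tlr9 from -0.16 to 0.08 (R848, WT) and Tlr4 from -2.01 to 0.13 (interaction). The cause was not tested. Over all genes, the R848 count in KAT8-deficient cells was 89, against 274 with no filter, 235 by DESeq2, 22 with the compared libraries alone and 2 to 186 without 1 library. The interaction count was 32, against 245 with no filter, 227 by DESeq2 and 6 to 208 without 1 library. The genotype count untreated was 600, against 384 with the compared libraries alone and 66 to 606 without 1 library. The other 2 counts were 858 to 1826 and 784 to 1894 without 1 library.

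The replicate numbers are shared labels only. Over 10555 genes the deviations of same-numbered libraries correlated between -0.03 and 0.06, and the block moved the R848 count in KAT8-deficient cells to 73 and the interaction count to 25. Groups of 2 limit what can be detected, above all for Tlr7 and Tlr4.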
